A study of Rattus norvegicus with 9 samples.

Results

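Chemokines are small secreted proteins that steer leukocytes along their gradients by binding G protein-coupled receptors on the cell surface. A set of 10 gene names was followed here through the left ventricle after myocardial infarction (MI): the ligands Ccl2, Ccl7, Ccl19 and Ccl21 of the CC family, the ligands Cxcl12, Cxcl14 and Cxcl16 of the CXC family, and the receptors Cx3cr1, Ccr2 and Cxcr4. The genes were taken by name, and no measured value was part of the rule. The set and the other lists below were chosen with earlier results of these data known, so their counts beside all genes are descriptions. Of the 10 names, 9 had a row among the 35843 genes of the expression table. Ccr2 was not analysed here.

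Total RNA came from left ventricles of adult male Sprague-Dawley (SD) rats, a common outbred laboratory stock, at day 28, with 3 rats in each of 3 groups. Rats of group Sham had their chest opened without ligation and received saline by gavage every day for 28 days. In group MI the left anterior descending coronary artery was tied permanently, and saline was given in the same way. The rats of group MI + DAPA (1st d), called group DAPA below, had the same ligation and were gavaged daily with dapagliflozin (DAPA), an inhibitor of the kidney glucose transporter SGLT2, at a dose of 1 mg/kg from the first day until day 28. All rats had surgery, and no age beyond "adult" was given. According to the methods of the study, molecular assays mainly used a thin strip along the infarct border after the scar had been cut away, with the matching site taken in group Sham. The ligated tissue sequenced is elsewhere called infarct myocardium, so how much scar each piece held is not known.

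In the injured heart, Ccl2 and Ccl7 are best known for drawing inflammatory monocytes from blood, and Ccl19 and Ccl21 for guiding dendritic cells and T cells that carry the receptor Ccr7 toward lymphatic vessels and lymphoid tissue. Cxcl12 acts on Cxcr4 and retains or recruits progenitor cells and lymphocytes, Cxcl16 is a membrane-bound ligand of Cxcr6, and Cxcl14 is a less well understood chemokine of epithelia and stroma. Cx3cr1, the receptor of fractalkine (Cx3cl1), marks patrolling monocytes and many tissue macrophages.

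The start regions of 3 ligands are shown because these genes carry the results below. Ccl19 and Ccl21 are the ligands of the set that were called higher after ligation, and Ccl7 moved from rat to rat together with Ccl2. Each sequence is RefSeq's, on assembly GRCr8, with 250 bases before and 50 bases after the annotated start site, written 5′ to 3′ on the gene's own strand. Capitals mark matches to 4 motifs searched on both strands: the TATA box (TATAAA), the AP-1 motif (TGANTCA), the interferon-stimulated response element (GAAANNGAAA) and the NF-kappaB motif. In the table of start regions 9 of the 10 named genes were matched, all but Ccl2. The Ccl7 region lies at chr10:67513845-67514144 on the plus strand, the Ccl19 region at chr5:61761115-61761414 on the minus strand and the Ccl21 region at chr5:61777466-61777765 on the minus strand.
Ccl7: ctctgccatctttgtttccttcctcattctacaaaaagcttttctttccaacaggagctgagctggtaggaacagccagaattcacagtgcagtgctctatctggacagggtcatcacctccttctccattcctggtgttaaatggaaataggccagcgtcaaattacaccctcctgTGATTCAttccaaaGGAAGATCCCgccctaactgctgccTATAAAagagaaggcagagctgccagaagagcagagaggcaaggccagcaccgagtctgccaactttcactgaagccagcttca
Ccl19: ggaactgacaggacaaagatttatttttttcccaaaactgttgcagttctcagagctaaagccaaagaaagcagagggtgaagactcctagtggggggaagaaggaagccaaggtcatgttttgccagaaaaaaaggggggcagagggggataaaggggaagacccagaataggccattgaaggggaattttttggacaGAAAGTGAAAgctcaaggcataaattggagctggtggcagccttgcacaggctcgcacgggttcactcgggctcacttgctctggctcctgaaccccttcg
Ccl21: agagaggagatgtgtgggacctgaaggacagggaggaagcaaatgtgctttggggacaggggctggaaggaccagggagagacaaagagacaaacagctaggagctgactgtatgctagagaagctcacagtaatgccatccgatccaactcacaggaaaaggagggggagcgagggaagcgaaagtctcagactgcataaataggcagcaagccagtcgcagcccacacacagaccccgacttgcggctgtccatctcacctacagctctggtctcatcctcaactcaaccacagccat

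In the Ccl7 region, the TATA box began 34 bases before the start site, the AP-1 match 73 bases before it, and the NF-kappaB match, read on the opposite strand, 59 bases before it. The Ccl19 region held an interferon-stimulated response element 51 bases before the start site, and the Ccl21 region matched none of the 4 motifs in these letters. Among all 33469 rat start regions of this length, 14.2% held the TATA box, 7.33% the AP-1 motif, 3.92% the interferon-stimulated response element and 7.51% the NF-kappaB motif, and a match says nothing of binding in these hearts. On the RefSeq map, Ccl2 and Ccl7 were next to each other on chromosome 10 with 0 annotated genes between them. Ccl19 and Ccl21 were neighbours on chromosome 5 with 1 annotated gene between them.

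Expression was deposited as FPKM, here fragments scaled to transcript length and by 1 factor per library. This level per length can be compared between genes. The factor did not follow library size. Relative to Sham replicate 1, with 16899764 recovered reads, it was 0.542 in MI replicate 1, with 15565396. The median ratio of each library to the average of all 9 was 0.996 to 1.01, so the deposited values already stood near a common median. The libraries held 13280612 to 17210890 recovered reads, of which 5702435 to 6570689 in group Sham, 12319318 to 13171496 in group MI and 11440215 to 12082060 in group DAPA lay outside the mitochondrial genome. Chemokine levels of group Sham therefore rest on the fewest reads, and the floor of 3 reads corresponded to 1.74e-05% to 2.26e-05% of a library, counting error alone considered. All 10 cardiomyocyte markers listed were found in every library, but their summed level ran from 1766 FPKM in MI replicate 2 to 14040 FPKM in DAPA replicate 2. MI replicate 2 stood apart, with a summed level of 7 B and plasma cell markers of 3823 FPKM against 35.9 and 666 FPKM in the other MI rats and at most 17.0 FPKM elsewhere. Markers of macrophages, fibroblasts and lymphatic endothelium also differed between the groups and are given beside the genes below. In bulk tissue, a change in the number of cells and a change in the RNA of each cell cannot be told apart.

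A gene was called higher or lower when its limma p, unadjusted, was under 0.05 and its log2 fold change on log2(FPKM + 1) exceeded 1 in size, and the Benjamini-Hochberg adjusted p over all genes tested is given beside it. An exact permutation test over the rats is also given, whose smallest two-sided p with 3 rats against 3 is 0.1. Values of single rats are listed in the order of replicates 1, 2 and 3.

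**Figure D1:**
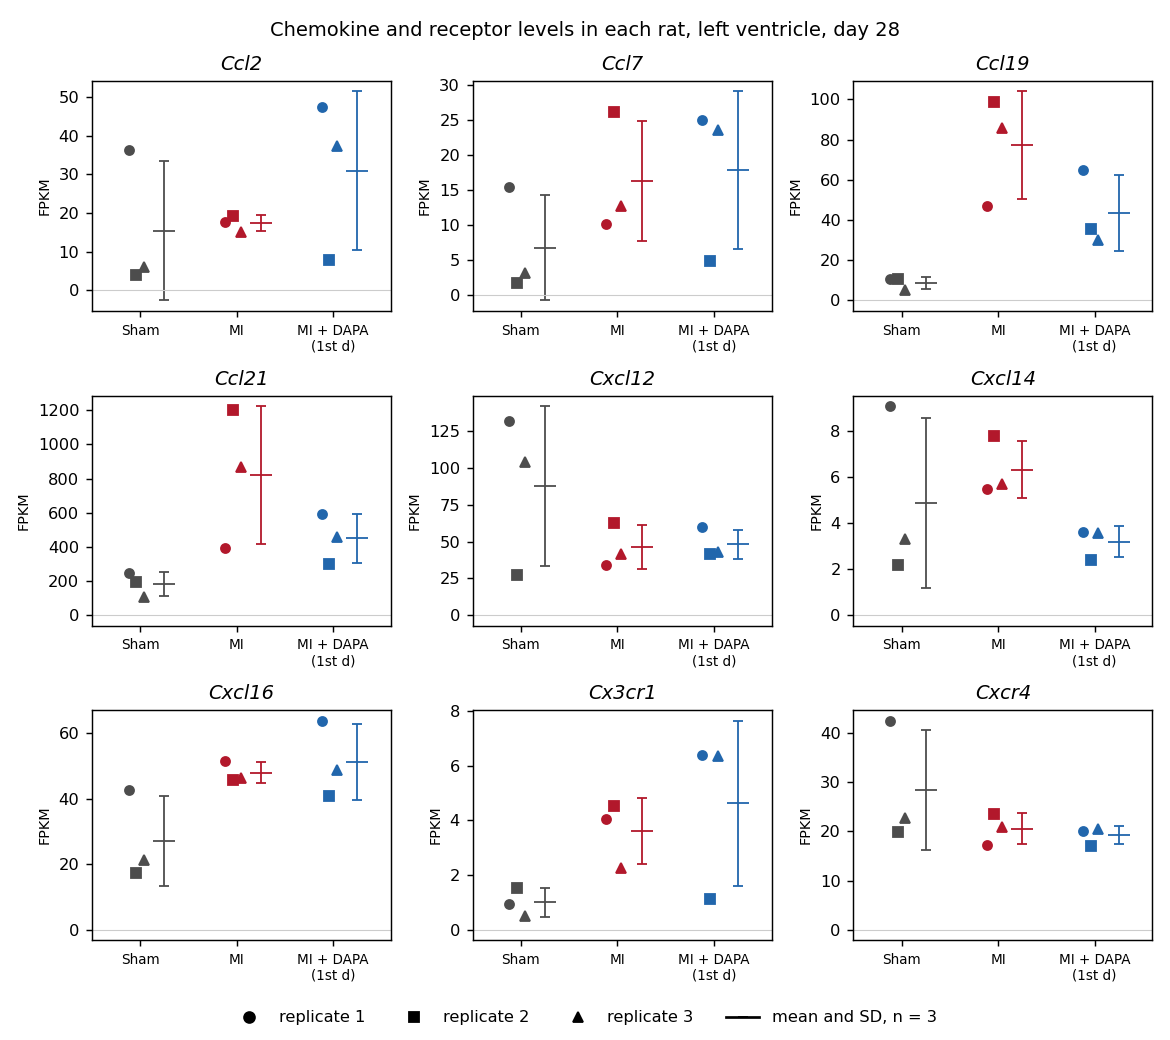
FPKM of the 9 genes (vertical axes, each on its own scale starting at or just below 0) in every rat of groups Sham, MI and DAPA, with the mean and SD (n = 3) beside the points; circles, squares and triangles are replicates 1, 2 and 3. Ccl19 and Ccl21 of the 3 Sham rats lie below those of all 6 ligated rats, while Ccl2 and Ccl7 of Sham replicate 1 reach the range of ligated rats.

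Group MI vs. group Sham asked how the chemokine system differed in the ventricle 28 days after ligation. Of the 9 genes, 3 were called higher (Ccl19, Ccl21 and Cx3cr1) and 0 were called lower, beside 12.1% higher and 10.3% lower among all 13485 genes tested. With adjusted p-values the same 3 genes were called, where 21.5% of all genes passed in either direction. Without the fold threshold, 4 of 9 were higher and 0 lower, beside 24.5% and 24.4% of all genes. The 3 MI rats lay entirely above the 3 Sham rats in 4 of the 9 genes and entirely below in 0, beside 27.1% and 27.5% of all genes. The median log2 fold change of the 9 genes was 0.90, and that of all genes tested was -0.01.

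Ccl19 (ENSRNOG00000015668), a ligand of Ccr7, rose the most of the 9 genes. It stood at 10.5, 10.5 and 5.07 FPKM in the Sham rats and at 47.0, 98.6 and 85.6 FPKM in the MI rats. The lowest MI rat lay above the highest Sham rat, and the means were 8.69 ± 3.14 and 77.1 ± 26.8 FPKM (SD, n = 3), an 8.87-fold difference. Its log2 fold change was 3.00 (SE 0.35, 95% interval 2.17 to 3.84) with a limma p of 5.5e-05, an adjusted p of 0.00163 and an exact permutation p of 0.1.

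Ccl21 (ENSRNOG00000034290), the other ligand of Ccr7 and a product of lymphatic endothelium, rose as well, from a far higher level. The Sham rats had 246.6, 193 and 106 FPKM and the MI rats 395, 1199 and 868 FPKM. Again the groups did not overlap, with means of 182 ± 71.0 and 820 ± 404 FPKM (SD, n = 3), a 4.51-fold difference. Its log2 fold change was 2.11 (SE 0.47, 95% interval 1.01 to 3.20) with a limma p of 0.00257, an adjusted p of 0.0124 and an exact permutation p of 0.1. Both rises kept their direction and their call in each fit with 1 rat left out, between 2.70 and 3.32 for Ccl19 and between 1.76 and 2.56 for Ccl21 on the log2 scale, MI replicate 2 among those left out. The rat gene now named Ccl21 carries the older name Ccl21b, and how reads of any near-identical copy were shared out was not tested.

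The summed level of 5 lymphatic endothelial markers moved beside the pair. It ranged from 19.3 to 35.4 FPKM in group Sham and from 80.0 to 144 FPKM in group MI. All 5 markers were above their Sham range in the 3 MI rats, beside 27.1% of all genes tested. Lyve1, a hyaluronan receptor of lymphatic endothelium that some macrophages also carry, ran from 7.51 to 22.2 FPKM in group Sham and from 48.6 to 82.6 FPKM in group MI. Prox1, the transcription factor that defines lymphatic endothelium, ran from 0.647 to 0.942 FPKM and from 1.45 to 2.74 FPKM in the same groups. All Sham rats were under 1 FPKM of Prox1. It thus passed the filter of 1 FPKM in 3 rats through the MI rats alone, which selects for this direction. The part of lymphatic vessels in both rises was not tested.

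Ccl2 (ENSRNOG00000007159) and Ccl7 (ENSRNOG00000000239), the monocyte attractants, did not pass the test against group Sham. Ccl2 was at 36.3, 3.97 and 6.12 FPKM in the Sham rats and at 17.7, 19.1 and 15.1 FPKM in the MI rats. Sham replicate 1 held more Ccl2 than any MI rat, so that the Sham mean of 15.5 ± 18.1 FPKM lay close to the MI mean of 17.3 ± 2.07 FPKM (SD, n = 3). For Ccl2, limma gave a log2 fold change of 0.73 (SE 0.68, 95% interval -0.88 to 2.35) with a limma p of 0.319 and an exact permutation p of 0.4. Ccl7 was at 15.4, 1.72 and 3.21 FPKM in group Sham and at 10.2, 26.1 and 12.7 FPKM in group MI. Here too Sham replicate 1 fell within the MI range, and the log2 fold change of 1.49 (SE 0.66, 95% interval -0.08 to 3.05) had a limma p of 0.0592, an adjusted p of 0.116 and an exact permutation p of 0.3. Without Sham replicate 1 both genes were called higher, Ccl2 at 1.62 and Ccl7 at 2.25 on the log2 scale. Few reads lay behind these values, 34 to 653 per rat for Ccl2 and 15 to 392 for Ccl7.

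The 3 CXC ligands gave no call. Cxcl12 (ENSRNOG00000013589), the ligand of Cxcr4, was at 132, 27.1 and 104 FPKM in the Sham rats and at 34.2, 62.9 and 41.6 FPKM in the MI rats. Sham replicate 2 lay below all MI rats and the others above them, and the log2 fold change was -0.68 (SE 0.57, 95% interval -2.02 to 0.66; limma p of 0.27, exact permutation p of 0.4). Without Sham replicate 2 Cxcl12 was called lower, at -1.37 on the log2 scale, but the sign of its difference turned under a scaling given below. Cxcl14 (ENSRNOG00000011984) was at 9.07, 2.17 and 3.31 FPKM in group Sham and at 5.49, 7.76 and 5.70 FPKM in group MI. The MI rats sat between the Sham rats, with a log2 fold change of 0.49 (SE 0.41; limma p of 0.272, exact permutation p of 0.4).

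Cxcl16 (ENSRNOG00000026647), which is both a scavenger receptor for oxidized lipids and a ligand of Cxcr6, stood at 42.8, 17.4 and 21.3 FPKM in the Sham rats and at 51.6, 45.8 and 46.3 FPKM in the MI rats. No Sham rat reached the MI range, and the MI mean of 47.9 FPKM was 1.77 times the Sham mean of 27.1 FPKM. The log2 fold change of 0.90 (SE 0.31, 95% interval 0.17 to 1.63) had a limma p of 0.0222, an adjusted p of 0.0551 and an exact permutation p of 0.1, and it missed the fold threshold. Without Sham replicate 1 it was 1.27 and passed.

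Among the receptors, Cx3cr1 (ENSRNOG00000018509) rose from a low level. It was at 0.937, 1.54 and 0.514 FPKM in the Sham rats, where 13, 21 and 6 reads stood behind it, and at 4.06, 4.53 and 2.24 FPKM in the MI rats, with 104, 106 and 57 reads. Every MI rat lay above every Sham rat, with means of 0.998 ± 0.517 and 3.61 ± 1.21 FPKM (SD, n = 3), a 3.62-fold difference. The log2 fold change of 1.20 (SE 0.29, 95% interval 0.51 to 1.89) had a limma p of 0.00441, an adjusted p of 0.0178 and an exact permutation p of 0.1. The added pseudocount of 1 holds this value down, and with a pseudocount of 0.1 it was 1.81.

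The macrophage marker list, of which 13 genes were found, moved with Cx3cr1. Its summed level was 174 to 535 FPKM in group Sham and 2021 to 3650 FPKM in group MI. Of the 13 markers, 12 were called higher, beside 12.1% of all genes tested. Relative to the macrophage genes the rise of Cx3cr1 was not tested. Cxcr4 (ENSRNOG00000003866), a receptor of many leukocytes and of endothelium, was at 42.6, 20.0 and 22.8 FPKM in the Sham rats and at 17.2, 23.5 and 20.9 FPKM in the MI rats. The groups overlapped, and the log2 fold change of -0.38 (SE 0.29) had a limma p of 0.22 and an exact permutation p of 0.5.

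**Figure D2:**
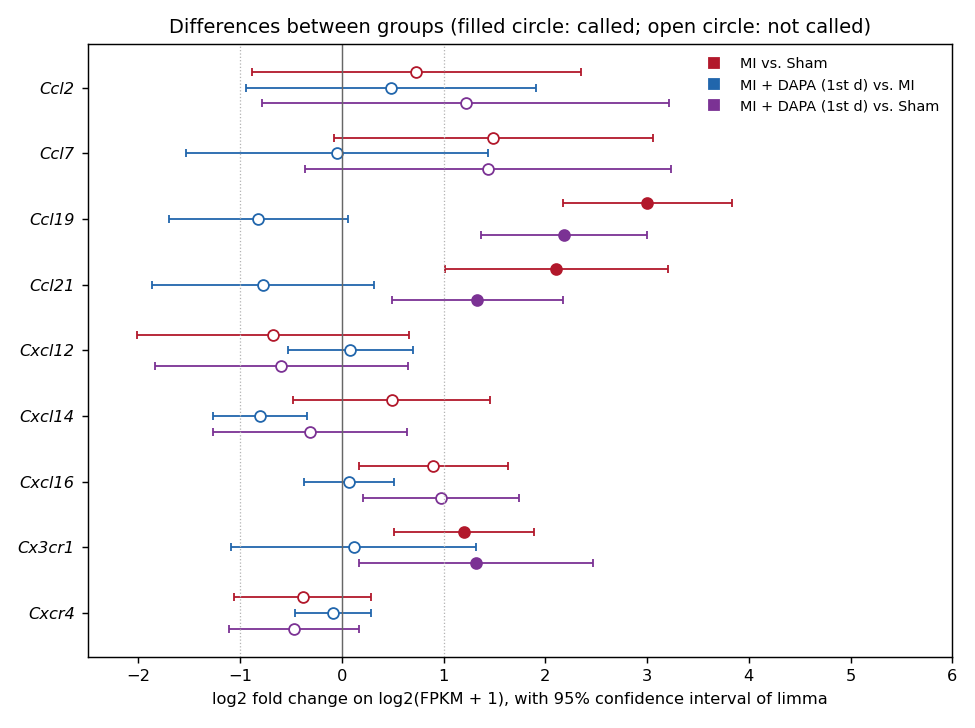
log2 fold change on log2(FPKM + 1) (horizontal axis) of each gene in the 3 comparisons, with limma's 95% confidence interval; filled circles were called, open circles were not, and dotted lines mark the fold threshold. Ccl19, Ccl21 and Cx3cr1 are filled in both comparisons with group Sham, and no circle of DAPA vs. MI is filled.

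Group DAPA vs. group MI asked whether treatment changed these genes in ligated hearts. Of the 9 genes, 0 were called in either direction, beside 0.951% higher and 1.11% lower among 13251 genes tested. No gene passed an adjusted p of 0.05 with the fold threshold in limma (0% of all genes), the smallest adjusted p being 0.558, while 608 genes were higher and 517 lower at an unadjusted p under 0.05, 4.59% and 3.9% of those tested. Among the 9, that looser rule held 0 higher genes and 1 lower gene, Cxcl14. The treated rats lay entirely above the MI rats in 0 and entirely below them in 1 of the 9 genes, beside 6.63% and 7.16% of all genes. The median log2 fold change was -0.05 for the 9 genes and -0.02 for all genes tested.

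Cxcl14 was at 3.61, 2.39 and 3.57 FPKM in the treated rats, against 5.49, 7.76 and 5.70 FPKM in the MI rats. The treated rats were all below the MI rats and within the range of group Sham. The means were 3.19 ± 0.689 and 6.32 ± 1.26 FPKM (SD, n = 3), and the log2 fold change of -0.80 (SE 0.20, 95% interval -1.27 to -0.34) had a limma p of 0.00471, an adjusted p of 0.558 and an exact permutation p of 0.1. It missed the fold threshold, and with 1 rat left out it ranged from -0.88 to -0.66.

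Ccl19 was at 65.1, 35.4 and 30.3 FPKM in the treated rats and at 47.0, 98.6 and 85.6 FPKM in the MI rats. A pair of treated rats lay below all MI rats and the other between them, with means of 43.6 ± 18.8 and 77.1 ± 26.8 FPKM (SD, n = 3). Its log2 fold change was -0.82 (SE 0.37, 95% interval -1.70 to 0.06) with a limma p of 0.0638, an adjusted p of 0.558 and an exact permutation p of 0.2. Ccl21 was at 591, 302 and 459 FPKM in the treated rats and at 395, 1199 and 868 FPKM in the MI rats. MI replicate 1 lay within the treated range, and the log2 fold change of -0.77 (SE 0.46, 95% interval -1.87 to 0.32) had a limma p of 0.137 and an exact permutation p of 0.3. Without MI replicate 1 both genes were called lower, Ccl19 at -1.14 and Ccl21 at -1.23, and without DAPA replicate 1 Ccl19 alone was, at -1.14. The lymphatic endothelial markers summed to 47.5 to 68.4 FPKM in the treated rats and to 80.0 to 144 FPKM in the MI rats. Of the 5, 1 was called lower, Lyve1, beside 1.11% of all genes tested. Lyve1 made up most of these sums, at 28.9 to 37.2 FPKM in the treated rats and 48.6 to 82.6 FPKM in the MI rats. Which cells carried Lyve1 was not tested.

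Ccl2 was at 47.4, 7.90 and 37.3 FPKM in the treated rats, and Ccl7 at 25.0, 4.83 and 23.5 FPKM. In both genes replicates 1 and 3 were high and replicate 2 was low, so that treated rats lay on either side of the MI rats for Ccl2, with means of 30.9 ± 20.5 and 17.3 ± 2.07 FPKM (SD, n = 3). The log2 fold change was 0.48 (SE 0.60, 95% interval -0.94 to 1.91) for Ccl2 and -0.05 (SE 0.62) for Ccl7, with limma p of 0.447 and 0.936. Without DAPA replicate 2 Ccl2 was called higher, at 1.24, and the sign of Ccl7 turned, to 0.65.

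Cx3cr1 was at 6.40, 1.13 and 6.34 FPKM in the treated rats, above all MI rats in replicates 1 and 3 and below them in replicate 2. Its log2 fold change was 0.12 (SE 0.51, 95% interval -1.09 to 1.32) with a limma p of 0.826. The macrophage list summed to 1106 to 2070 FPKM in the treated rats. Its 13 markers all had a negative difference from group MI with 0 called, beside 1.11% called lower among all genes. Cxcl16 was at 63.9, 40.9 and 48.9 FPKM, on both sides of the MI rats, with a log2 fold change of 0.07 (SE 0.19, 95% interval -0.37 to 0.52; limma p of 0.706). Cxcl12 was at 59.7, 41.4 and 43.2 FPKM, inside the MI range, with a log2 fold change of 0.08 (SE 0.26, 95% interval -0.53 to 0.70; limma p of 0.757). Cxcr4 was at 20.1, 17.1 and 20.4 FPKM, with a log2 fold change of -0.09 (SE 0.16, 95% interval -0.46 to 0.29; limma p of 0.606). For Cxcl12, Cxcl16 and Cxcr4 the intervals leave out a 2-fold difference in either direction.

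Group DAPA vs. group Sham shares its rats with the comparisons above. Of the 9 genes, 3 were called higher (Ccl19, Ccl21 and Cx3cr1) and 0 lower, beside 9.54% and 8.16% of 13359 genes tested. With adjusted p-values Ccl19 and Ccl21 were called, where 16.2% of all genes passed. Without the fold threshold 4 were higher and 0 lower, beside 21.1% and 20.4%. The treated rats lay entirely above the Sham rats in 2 genes and entirely below in 0, beside 23.2% and 23.3%. The median log2 fold change was 1.22 for the 9 genes and 0.01 for all genes tested.

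The lowest treated rat had 30.3 FPKM of Ccl19 and the highest Sham rat 10.5 FPKM, and the means differed 5.01-fold. The log2 fold change was 2.18 (SE 0.35, 95% interval 1.36 to 3.00) with a limma p of 0.00031, an adjusted p of 0.00543 and an exact permutation p of 0.1. For Ccl21 the same margins were 302 and 246.6 FPKM, with a log2 fold change of 1.33 (SE 0.36, 95% interval 0.49 to 2.18; limma p of 0.00681, adjusted p of 0.0305, exact permutation p of 0.1). Without Sham replicate 3, the lowest rat for Ccl21, the value was 0.99 and fell short of the fold threshold.

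Cx3cr1 of treated replicate 2, at 1.13 FPKM, lay within the Sham range, and the other treated rats lay above it. The log2 fold change of 1.32 (SE 0.50, 95% interval 0.17 to 2.47) had a limma p of 0.0301, an adjusted p of 0.0849 and an exact permutation p of 0.2, and the call was lost without treated replicate 1 or 3 and without Sham replicate 1 or 3, at 1.02 to 1.31. Cxcl16 had a log2 fold change of 0.97 (SE 0.33, 95% interval 0.20 to 1.74; limma p of 0.0197, adjusted p of 0.0624, exact permutation p of 0.2) and missed the fold threshold. Ccl2, at 1.22 (SE 0.86; limma p of 0.197), and Ccl7, at 1.44 (SE 0.77; limma p of 0.102), had the widest intervals of the 9 genes, -0.79 to 3.22 and -0.36 to 3.24. Cxcl12, Cxcl14 and Cxcr4 had log2 fold changes of -0.60, -0.32 and -0.47, with limma p of 0.299, 0.464 and 0.128.

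Directions depended on how libraries were put on a common scale. Rescaling every library to the same FPKM sum moved the median of all genes by 1.34 in MI vs. Sham, by -0.34 in DAPA vs. MI and by 1.02 in DAPA vs. Sham on the log2 scale. On that scale, in MI vs. Sham, Ccl19 stood at 4.41, Ccl21 at 3.66 and Cx3cr1 at 2.08 against a median of 1.28 for all genes. Cxcl12 at 0.85 and Cxcr4 at 1.10 turned positive there while remaining under that median. Rescaling without the mitochondrial genome moved no sign of the 9 genes in MI vs. Sham. Rescaling by median ratios moved none either, but with factors of 0.996 to 1.01 it nearly repeated the deposited scale and could show little. Mitochondrially encoded transcripts held 63.2% ± 3.18 of the recovered reads of the Sham rats, 13.9% ± 6.09 of the MI rats and 25.6% ± 7.42 of the treated rats (SD, n = 3).

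**Figure D3:**
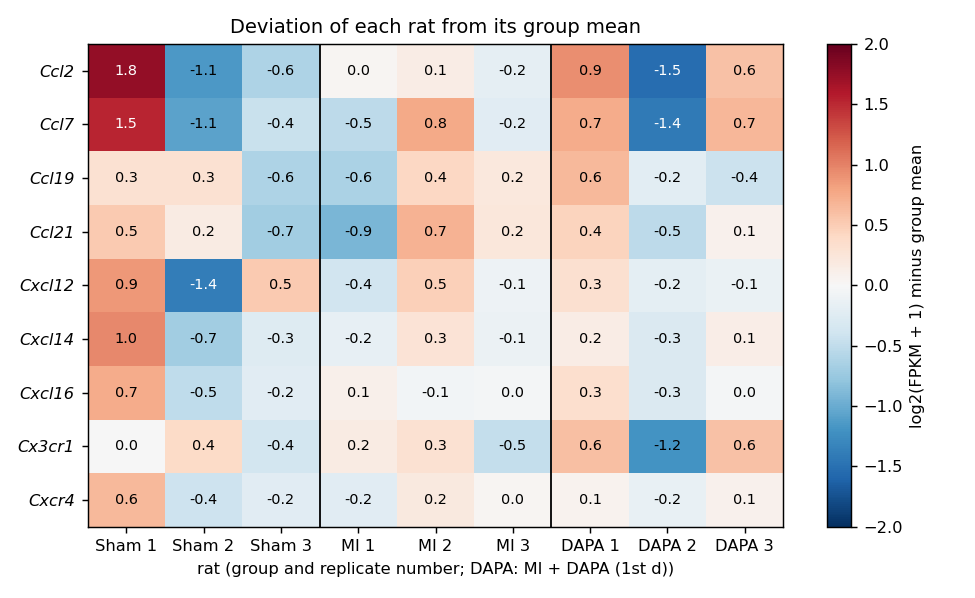
Deviation of each rat's log2(FPKM + 1) from the mean of its group (colour and printed value, red above and blue below) for the 9 genes (rows) and 9 rats (columns; replicates 1 to 3 of each group). Sham replicate 1 and DAPA replicate 1 are the highest of their group in 8 of 9 genes each, and DAPA replicate 2 is the lowest in 8.

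Within each group, most of the 9 genes were high or low in the same rat. Sham replicate 1 was the highest Sham rat in 8 of the 9 genes, all but Cx3cr1, whereas it was the highest for 34.3% of the 14157 genes compared this way. MI replicate 2 was the highest MI rat in 8 of 9, all but Cxcl16, against 38.8% of all genes. DAPA replicate 1 was the highest of its group in 8 of 9, all but Cxcr4, against 29% of all genes, and replicate 2 was the lowest in 8 of 9, all but Ccl19, against 33.9%. The 9 genes share these libraries, so the counts describe single rats and no group.

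Macrophage markers ran the same way in some of these rats and not in others. Their sum was highest in the Sham group in replicate 1, at 535 against 174 and 227 FPKM, and highest in the MI group in replicate 2, at 3650 against 2021 and 2080 FPKM. In the treated group it was lowest in replicate 2, at 1106 against 1512 and 2070 FPKM, but highest in replicate 3. Within group Sham, every macrophage marker found except Cd163 was highest in replicate 1. The margin was wide for Lyz2, at 283 against 90.8 and 60.0 FPKM, and narrow for Mrc1, at 8.25 against 7.58 and 3.95 FPKM. Cd68, a lysosomal protein of macrophages, was at 19.4 FPKM in replicate 1 and at 3.22 and 4.39 FPKM in the other Sham rats. Cd163, the exception, was at 3.48 FPKM in replicate 1 and at 4.78 and 3.17 FPKM in the others. The neutrophil markers summed to 177 FPKM in DAPA replicate 1 and to 12.5 and 33.1 FPKM in the other treated rats. The part of these cells in the spread of Ccl2 and Ccl7 was not tested.

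Ccl2 and Ccl7 kept a fairly steady ratio across this spread. The FPKM of Ccl2 was 1.91 to 2.36 times that of Ccl7 in the Sham rats and 1.59 to 1.89 times in the treated rats, although Ccl2 itself varied from 3.97 to 47.4 FPKM in these 6 animals. In the MI rats the ratio was lower in replicate 2, at 0.732, than in replicates 1 and 3, at 1.74 and 1.19. Ccl21 exceeded Ccl19 in every rat, by 18.4 to 23.4 times in group Sham, 8.40 to 12.2 times in group MI and 8.54 to 15.2 times in group DAPA. All 6 ligated rats thus lay below the 3 Sham rats in this ratio.

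**Figure D4:**
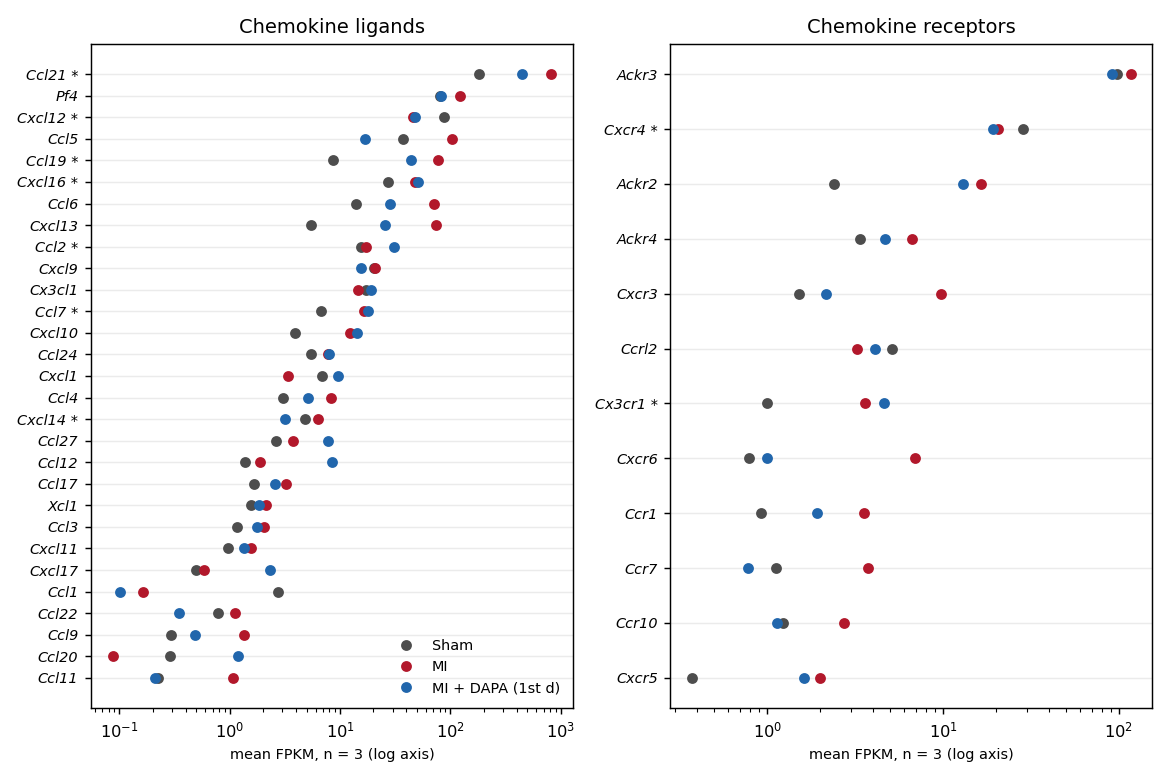
Mean FPKM (n = 3, horizontal log axis) of chemokine ligands (left) and receptors (right) with a mean of at least 1 in some group, ordered by their mean over groups; grey, red and blue points are group Sham, group MI and group DAPA, and asterisks mark the 9 genes described here. Ccl21 is the highest ligand and Ackr3 the highest receptor in all 3 groups, and the red point of Ccl21, at 820 FPKM, is the rightmost of all.

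Ccl21 had the highest mean of the chemokine ligands in each group. In Sham replicate 3 Cxcl12 was nearly level with it, at 104 against 106 FPKM. The 36 ligands measured summed to 412 to 705 FPKM in the Sham rats, 817 to 2205 FPKM in the MI rats and 624 to 1069 FPKM in the treated rats. Ccl21 alone made up 25.8% to 38.1%, 48.3% to 60.0% and 45.9% to 55.3% of these sums, the largest share in each group. By group mean Cxcl12 ranked second in group Sham, with 5.33% to 25.3% of the sum. It was at rank 8 in group MI with 2.85% to 4.19% and at rank 4 in group DAPA with 4.32% to 6.63%. In Sham replicate 2 it was below Pf4, at 27.1 against 98.9 FPKM. Ccl19 accounted for 1.23% to 2.06% of the sum in the Sham rats, 4.47% to 5.92% in the MI rats and 3.02% to 6.08% in the treated rats. Since shares of a sum depend on each other, a larger share of Ccl21 lowers the others by itself.

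Of 20 receptors, the decoy receptor Ackr3, which binds and removes Cxcl12, was the most abundant in each group with 62.9% to 71.8%, 52.5% to 61.1% and 56.1% to 64.8% of their summed FPKM. Cxcr4 ranked second in all 3 groups, with 15.9% to 25.8% in group Sham, 7.97% to 14.2% in group MI and 12% to 15.6% in group DAPA. Both receptors of Cxcl12 thus outweighed all the others together in each rat. Ackr3 itself was at 104, 85.0 and 103 FPKM in the Sham rats, 94.5, 177 and 77.3 FPKM in the MI rats and 106, 61.4 and 108 FPKM in the treated rats, and gave no call in any comparison.

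**Figure D5:**
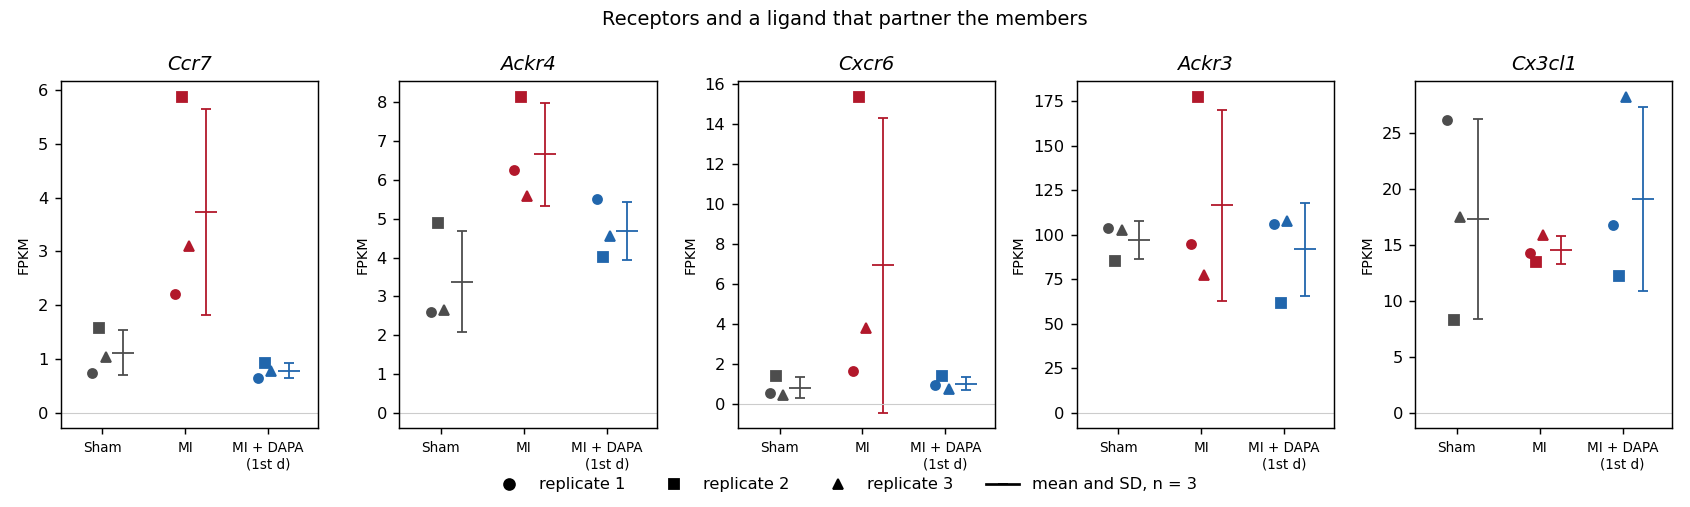
FPKM (vertical axes, own scales) in each rat of 4 receptors, Ccr7, Ackr4, Cxcr6 and Ackr3, and of the ligand Cx3cl1, chosen as partners or relatives of the receptors and ligands described here, with mean and SD (n = 3). Ccr7 of the treated rats lies between 0.638 and 0.917 FPKM, below all MI rats, whose highest value of 5.88 FPKM belongs to replicate 2.

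The partners on the other side of each interaction were read beside the 9 genes. Ccr7, the signalling receptor of Ccl19 and Ccl21, was at 0.737, 1.57 and 1.04 FPKM in the Sham rats, 2.21, 5.88 and 3.11 FPKM in the MI rats and 0.638, 0.917 and 0.775 FPKM in the treated rats. It was called higher in MI vs. Sham (log2 fold change 1.11, SE 0.32, limma p of 0.00998, adjusted p of 0.0308). In DAPA vs. MI all treated rats were under 1 FPKM and all MI rats above it, so that Ccr7 passed the filter on low values through the MI rats alone, which selects for this direction. Its log2 fold change there, -1.34 (SE 0.29, limma p of 0.00274, adjusted p of 0.558), is therefore given as a description, although it met the call rule. Without MI replicate 2 the rise of Ccr7 was 0.80 and missed the fold threshold, as it did at 0.97 without Sham replicate 1. In DAPA vs. MI, with any MI rat left out, Ccr7 no longer passed the filter. Ackr4, the scavenger of Ccl19 and Ccl21, was at 2.61, 4.88 and 2.65 FPKM, 6.26, 8.15 and 5.59 FPKM, and 5.50, 4.01 and 4.55 FPKM in the same order of groups. Its rats did not overlap in either MI comparison, but its log2 fold changes of 0.83 (limma p of 0.0117) and -0.42 (limma p of 0.051) missed the fold threshold. T cell markers, 8 in all, summed to 12.4 to 28.1 FPKM in group Sham, 64.0 to 275 FPKM in group MI and 35.0 to 68.0 FPKM in the treated group. Cd4 carried much of these sums, at 1.06 to 4.75, 48.3 to 124 and 23.1 to 51.5 FPKM. Without Cd4, a split chosen after its values were seen, the other 7 markers summed to 11.0 to 27.0 FPKM in group Sham, to 15.8, 151 and 39.8 FPKM in the MI rats and to 12 to 16.5 FPKM in the treated rats, so that MI replicate 1 and all treated rats lay within the Sham range. Of 7 T cell markers tested, 2 were called higher in MI vs. Sham, 2 lower in DAPA vs. MI and 1 higher in DAPA vs. Sham. The shares of all genes were 12.1%, 1.11% and 9.54%. The 1 in DAPA vs. Sham was Cd4, and the median log2 fold change of the 7 was 0.04 there. Which cells carried Cd4 was not tested, nor was the part of T cells in the Ccr7 values.

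Cxcr6, the receptor of Cxcl16 on T and natural killer cells, was at 0.543, 1.38 and 0.430 FPKM in the Sham rats, 1.62, 15.3 and 3.80 FPKM in the MI rats and 0.918, 1.36 and 0.733 FPKM in the treated rats. It was called higher in MI vs. Sham, at 1.76 (SE 0.63, limma p of 0.0257, adjusted p of 0.0617), and lower in DAPA vs. MI, at -1.57 (SE 0.62, limma p of 0.0394, adjusted p of 0.558). MI replicate 2, the rat with the most T cell marker signal, was the highest of all 9 rats. Without it the log2 fold changes of Cxcr6 were 1.03, still called, and -0.84, no longer called. The Cxcr6 call in MI vs. Sham was also lost without Sham replicate 1 or 3, and the call in DAPA vs. MI held in only 1 of 6 fits with a rat left out, that without MI replicate 1. Cxcl16 itself differed by 0.07 between treated and MI rats. Cx3cl1, the ligand of Cx3cr1, was at 26.2, 8.32 and 17.5 FPKM in the Sham rats, 14.2, 13.5 and 15.9 FPKM in the MI rats and 16.8, 12.2 and 28.2 FPKM in the treated rats, with log2 fold changes of -0.11, 0.29 and 0.18 in the 3 comparisons and no call.

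Among 29 other ligands, 18 could be tested in MI vs. Sham, and 3 were called higher and 0 lower, beside 12.1% and 10.3% of all genes tested, with a median log2 fold change of 0.47. The 3 of 18 are near that background. They were Cxcl13, which draws B cells into follicles (3.49, SE 0.43, adjusted p of 0.00183), Ccl6 (1.99, SE 0.48, adjusted p of 0.0168) and Ccl4 (1.24, SE 0.52, adjusted p of 0.0994). Cxcl13 stood at 2.79 to 7.79 FPKM in the Sham rats and at 47.2 to 121 FPKM in the MI rats. In DAPA vs. MI, 17 could be tested, 0 were called higher and 2 lower, beside 0.951% and 1.11% of all genes, and the median was -0.22. These were Cxcl13 (-1.56, SE 0.50, limma p of 0.0175) and the T cell attractant Ccl5 (-1.88, SE 0.77, limma p of 0.0459), which was at 21.9, 239 and 49.7 FPKM in the MI rats and at 14.8, 19.0 and 16.7 FPKM in the treated rats. Without MI replicate 2 the log2 fold change of Ccl5 was -0.94 and that of Cxcl13 -1.14, and Cxcl13 alone of the pair was called. The call of Ccl5 held in 1 of 6 fits with a rat left out, that without MI replicate 1, and that of Cxcl13 in 4 of 6, being lost without treated replicate 1 or 2. Ccl4 lost its call in MI vs. Sham without MI replicate 1 or 2 or Sham replicate 3. In DAPA vs. Sham, 16 could be tested and 2 were called higher, beside 9.54% of all genes, Cxcl13 (1.94, SE 0.46) and the monocyte attractant Ccl12 (1.75, SE 0.71), the latter with 18.9 FPKM in 1 treated rat and 2.67 and 3.67 FPKM in the others. Ccl12 lost its call without that rat, treated replicate 3, at 0.99, and without Sham replicate 2 or 3.

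Among 19 other receptors, 18 were found and 10 could be tested in MI vs. Sham, of which 6 were called higher and 0 lower, beside 12.1% and 10.3% of all genes tested, with a median log2 fold change of 1.07. Cxcr5 passed the filter through the MI rats alone, all Sham rats being under 1 FPKM, and without it 5 of 9 were called higher. Beside Ccr7 and Cxcr6 these were the scavenger Ackr2 (2.44, SE 0.33), the T cell receptor of interferon-induced chemokines Cxcr3 (1.70, SE 0.70), Ccr1 (1.17, SE 0.41) and the B cell receptor Cxcr5 (1.04, SE 0.34). Without MI replicate 2, Ccr1 at 1.13 and Cxcr3 at 0.93 were no longer called, while Ackr2 at 2.41 was. Ccr1 and Cxcr3 each lost their call in 4 of 6 fits with a rat left out. Ackr2 was at 0.844 to 3.27 FPKM in the Sham rats, 14.1 to 18.0 FPKM in the MI rats and 10.3 to 16.8 FPKM in the treated rats. In DAPA vs. MI, 10 could be tested, 0 were called higher and 2 lower, Ccr7 and Cxcr6, beside 0.951% and 1.11% of all genes, and the median was -0.49. Without Ccr7, which passed the filter through the MI rats alone, 1 of 9 was called lower and the median was -0.42. In DAPA vs. Sham, 6 could be tested and 1 was called higher, beside 9.54% of all genes, Ackr2 (2.11, SE 0.35).

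The last list held 20 genes that trim chemokines or shape receptor signalling, of which 19 were found and 17 tested in MI vs. Sham. There 6 were called higher and 1 lower, beside 12.1% and 10.3% of all genes tested, with a median of 0.48. The proteases Mmp2 (3.61, SE 0.37), Ctsk (3.37, SE 0.28) and Mmp14 (3.08, SE 0.46) rose, with the brakes of G protein signalling Rgs18 (2.70, SE 0.46), Rgs2 (2.35, SE 0.33) and Rgs1 (1.49, SE 0.42). Dpp4, a membrane peptidase that clips and inactivates Cxcl12, was lower, at -1.46 (SE 0.49, limma p of 0.0192, adjusted p of 0.0494), with 23.4, 13.3 and 26.1 FPKM in the Sham rats and 3.36, 15.1 and 5.41 FPKM in the MI rats. The Dpp4 call in MI vs. Sham was lost without MI replicate 1 or 3 or Sham replicate 1 or 3, at -1.36 to -1.06, and MI replicate 2 was the rat with the most Dpp4 in its group. In DAPA vs. MI, 0 of 17 were called, beside 0.951% higher and 1.11% lower among all genes, and the median was -0.18; at an unadjusted limma p under 0.05, 0 were higher and 1 was lower. In DAPA vs. Sham the same 6 of 17 genes were called higher and Dpp4 lower, beside 9.54% and 8.16% of all genes. Dpp4 stood at -2.29 (SE 0.26), its treated rats standing at 2.75, 3.89 and 3.39 FPKM. Rgs1 lost its call without Sham replicate 3 in both comparisons with group Sham, and without treated replicate 1 in DAPA vs. Sham. Fibroblast markers, 8 in all, summed to 407 to 638 FPKM in group Sham, 2268 to 4171 FPKM in group MI and 1809 to 2423 FPKM in group DAPA, and their part in these calls was not tested.

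Endothelial markers moved the other way. The 7 found summed to 974 to 1175 FPKM in group Sham, 279 to 366 FPKM in group MI and 379 to 421 FPKM in group DAPA. In MI vs. Sham 5 of the 7 were called lower, beside 10.3% of all genes tested. Cxcl12 and Cxcr4, which endothelium expresses, had differences of -0.68 and -0.38 in that comparison and were not called, and the part of endothelium in these values was not tested.

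For each of the 9 genes, the most similar profile over the 9 rats was sought by Pearson's r on log2(FPKM + 1). The search covered 11207 named genes whose mean log2(FPKM + 1) was at least 1. The rats fall into 3 groups and share their libraries, so r mixes group differences with the spread of single rats and is given as a description. Closest to Ccl19 were Hdac8 (r = 0.990) and Galns (r = 0.982), and closest to Ccl21 were Napsa (r = 0.975) and Exoc3l2 (r = 0.972). Ccl2 lay nearest to Sqle (r = 0.982) and Tmem115 (r = 0.943), and Ccl7 to Txnrd1 (r = 0.970) and Arpc2 (r = 0.959). The nearest genes were Nr1h3 (r = 0.950) and St3gal1 (r = 0.947) for Cxcl12, Usp27x (r = 0.958) and Klf3 (r = 0.936) for Cxcl14, and Itpk1 (r = 0.988) and Rbbp4 (r = 0.982) for Cxcl16. For the receptors they were Myh9l1 (r = 0.968) and Nek4 (r = 0.954) beside Cx3cr1, and Pigv (r = 0.935) and Ctbs (r = 0.930) beside Cxcr4. The members count among these 11207 genes but were passed over when the nearest genes were taken.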

How the data were processed

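RNA-seq of left ventricles covered 9 rats, 3 per group, which the series calls biological replicates. Each title names a pair of numbered parts, and whether these were pooled is not stated. The deposited values are FPKM, which the authors made from poly-A libraries, with 1 column for each rat. The submitters' processing notes name HISAT2 2.0.5, StringTie 1.3.3b, featureCounts 1.5.0-p3 and DESeq2, and the genome build is not given in the sources used here. The number of columns not used was 0, and columns were assigned by name.

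The 9 genes and the other lists were chosen with earlier results of these data known. From each gene's lowest steps whole reads were recovered (tolerance 0.01) for 18894 of 18896 genes with values in at least 4 libraries. Genes that reached 1 FPKM in 3 or more of the 6 rats of a comparison were fitted with limma 3.58.1 (R 4.3.3) on log2(FPKM + 1), 2 groups per fit, prior variance following mean expression, without covariates. This scale understates changes of low genes. The recovery of reads and the fit were tested on simulated data. No count test was used. An item of the receptor list is not reported here. Exact permutation tests over rats were two-sided. Named were all members, every listed pathway gene called in any comparison, fixed partners, and the 2 genes most correlated with each member. Alternatives were another pseudocount, no filter, 1 fit of all rats, a replicate block, 3 scalings, adjusted p-values, no fold threshold, a single prior variance and each rat left out. Intervals and floors cover counting error or the spread between rats only. Python 3.11.15, numpy 2.4.6, pandas 2.3.3 and matplotlib 3.10.9 were used.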

Additional observations from a re-analysis of the deposited data

How the results depend on the processing

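Of 405 recomputed single-gene differences of the 9 genes, 353 kept their direction and their side of the threshold, 18 reversed, 6 lost a call and 28 gained one. Ccl19 and Ccl21 in MI vs. Sham kept their calls under every alternative run. Among these alternatives, scaling by median ratios nearly repeats the deposited scale. With 3 rats per group and the fewest non-mitochondrial reads in group Sham, single rats decided several values, and the cause of these changes was not tested.

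Scaling to the same FPKM sum (TPM), which moves the median gene, called 8 of the 9 genes, 41 genes of the other chemokine lists and 8989 genes of all (8806 of them higher) in MI vs. Sham, against 3, 16 and 3024. It called 3, 9 and 538 (492 of them lower) in DAPA vs. MI, against 0, 4 and 273, the 3 being Ccl19 (-1.19), Ccl21 (-1.14) and Cxcl14 (-1.15). It called 6, 27 and 6426 in DAPA vs. Sham, against 3, 10 and 2364. Reversed there were Cxcl12 (0.85) and Cxcr4 (1.10) in MI vs. Sham, Cxcl12 (-0.28), Cxcl16 (-0.29) and Cx3cr1 (-0.17) in DAPA vs. MI, and Cxcl12 (0.57), Cxcl14 (0.56) and Cxcr4 (0.66) in DAPA vs. Sham.

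With no fold threshold, 6605, 1125 and 5534 genes passed in the 3 comparisons, and in DAPA vs. MI 1 of the 9 genes and 7 of the lists did. With adjusted p-values 0 genes and 0 of the lists passed there, and without the filter on low values 2 of the lists. Adjusted p also ended the call of Cx3cr1 in DAPA vs. Sham, as did leaving out treated replicate 1 or 3 or Sham replicate 1 or 3.

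With 1 rat left out, 3 to 6 of the 9 genes were called in MI vs. Sham (6 without Sham replicate 1), 0 to 2 in DAPA vs. MI (1 without treated replicate 1 or 2, 2 without MI replicate 1) and 1 to 6 in DAPA vs. Sham (1 without Sham replicate 3, 5 without Sham replicate 1, 6 without treated replicate 2). The lists gave 10 to 16 calls in MI vs. Sham (10 without Sham replicate 3), 1 to 6 in DAPA vs. MI (1 without treated replicate 1 or MI replicate 2, 2 without treated replicate 2 or MI replicate 3, 6 without MI replicate 1) and 9 to 11 in DAPA vs. Sham. Over all genes the ranges were 2545 to 3043, 111 to 561 and 2047 to 2478. In DAPA vs. MI the counts were 111 without MI replicate 2, 561 without MI replicate 3, 179, 152 and 499 without treated replicates 1, 2 and 3. Signs turned there for Ccl7 (range -0.425 to 0.653, positive without treated or MI replicate 2, the latter at 0.326), Cxcl12 (-0.106 to 0.323, negative without replicate 1 of either group, -0.0799 without the treated one), Cxcl16 (-0.0949 to 0.220, negative without treated replicate 1), Cx3cr1 (-0.186 to 0.714, negative without treated replicates 1 and 3, the latter at -0.179, and MI replicate 3 at -0.119) and Cxcr4 (-0.2003 to 0.0125, positive without MI replicate 2), and for Cxcl14 in DAPA vs. Sham (-0.667 to 0.166, positive without Sham replicate 1).

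The labels do not say whether replicate numbers pair rats, and the main fits did not use them so. Same-numbered rats had a mean correlation of deviations of 0.02, -0.17 and 0.10 in the 3 comparisons. For rats of other numbers it was -0.01, 0.09 and -0.05, and single same-numbered pairs ran from -0.304 to 0.195. Deviations of 3 rats from their mean depend on each other, so these values cannot decide whether rats were paired. In fits that took the replicate number as a block, 3, 0 and 5 of the 9 genes were called. Ccl2 and Ccl7 were the additions in DAPA vs. Sham. These fits called 15, 6 and 10 of the lists and 3044, 217 and 2404 of all genes.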
